A study of Arabidopsis thaliana and Arabidopsis thaliana x Arabidopsis arenosa and Arabidopsis arenosa with 18 samples.

Results

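The plant defensins PDF1 and PDF2 of Arabidopsis thaliana are small secreted peptides. The member loci were named by their locus codes and are PDF1.1, PDF1.2A, PDF1.2B, PDF1.2C, PDF1.3, PDF1.4, PDF2.1, PDF2.2, PDF2.3 and PDF2.5, which makes 10 of the 33602 loci in the gene table. All 10 were found in the table, and they were followed across 14 libraries of messenger RNA in 7 groups of 2, all collected 3 days after pollination. The seed groups were the Col control (a ColA9 mother with a Col-0 father), the C24 control (a C24A9 mother with a C24 father), the Col hybrid and the C24 hybrid (the same mothers with a diploid A. arenosa var. Strecno father) and the A. arenosa control (A. arenosa crossed with itself). The silique groups were whole fruits of the Col hybrid and of the C24 hybrid crosses. Col-0 and C24 are wild accessions of A. thaliana. Every A. thaliana mother, in control and hybrid crosses alike, was hemizygous for a male-sterility construct and was pollinated by hand. Per the labels, a single A. arenosa plant served in all crosses, so that the hybrids carried the alleles of that plant. The series title names incompatibility between species and defence-like responses as its subject.

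Plant defensins are cysteine-rich peptides that act mainly against fungi, and the mature peptide is cut from a precursor with a secretion signal. The PDF1.2 genes are the standard readout of the joint jasmonate and ethylene defence branch: in leaves, fungal attack raises both hormones, transcription factors such as ERF1 and ORA59 accumulate, and they bind a GCC box in the PDF1.2A promoter. A second jasmonate branch, driven by MYC2, raises wound response genes such as VSP2 and restrains PDF1.2. PDF1.1 is known as a defensin of A. thaliana seeds, while PDF2.2 and PDF2.3 are known as genes that are transcribed in many tissues without infection.

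In TAIR10.1, every member has 2 exons and no overlapping gene on the map. On chromosome 1 lie PDF1.4 (AT1G19610, chr1:6781483-6782216, minus strand) and PDF1.1 (AT1G75830, chr1:28472357-28472898, plus strand). On the plus strand of chromosome 2 lie PDF2.2 (AT2G02100, chr2:528179-529186), PDF2.1 (AT2G02120, chr2:538250-539123), PDF2.3 (AT2G02130, chr2:539898-540707), PDF1.3 (AT2G26010, chr2:11087280-11088001) and PDF1.2B (AT2G26020, chr2:11089123-11089805). On chromosome 5 lie PDF1.2A (AT5G44420, chr5:17906968-17907638) and PDF1.2C (AT5G44430, chr5:17908850-17909507) on the minus strand and PDF2.5 (AT5G63660, chr5:25485486-25486324) on the plus strand.

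The first bases of the coding sequence are shown for the 4 closest members because short reads over such stretches can match several of the loci. They are RefSeq sequences of TAIR10.1, 5′ to 3′ on the coding strand, with the bases that differ from PDF1.2A in capitals, from chr5:17907488-17907550 and chr5:17909382-17909444 on the minus strand and chr2:11089281-11089343 and chr2:11087411-11087473 on the plus strand.
PDF1.2A: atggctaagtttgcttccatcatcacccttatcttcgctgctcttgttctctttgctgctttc
PDF1.2B: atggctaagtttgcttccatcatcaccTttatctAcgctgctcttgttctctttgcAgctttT
PDF1.2C: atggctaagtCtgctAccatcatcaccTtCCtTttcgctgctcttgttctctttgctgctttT
PDF1.3: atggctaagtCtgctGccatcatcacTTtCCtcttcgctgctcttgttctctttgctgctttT
Over these 63 bases PDF1.2B differed from PDF1.2A at 4, and PDF1.2C and PDF1.3 each differed at 7. Over the whole 243-base coding sequence, identity among these 4 genes lay between 91.4% (PDF1.2A and PDF1.3) and 94.7% (PDF1.2C and PDF1.3), and PDF1.1 matched them at 87.2 to 90.5%. PDF1.4 stood apart, with 58.1 to 61.9% identity to the other PDF1 genes. Within PDF2, PDF2.1, PDF2.2 and PDF2.3 shared 85.4 to 88.0% of their coding bases, and PDF2.5 shared 62.7 to 66.4% with them. Between 4.0 and 17.1% of the 31-base words in the exons of PDF1.1, PDF1.2A, PDF1.2B, PDF1.2C and PDF1.3 occurred elsewhere in the genome, so counts among these 5 are uncertain. For PDF2.1 and PDF2.2 it was 1.1% and 0.9%, and for PDF2.3, PDF1.4 and PDF2.5 it was 0.0%. Several members are neighbours: 1121 bases separate PDF1.3 from PDF1.2B, 1211 separate PDF1.2A from PDF1.2C, 774 separate PDF2.1 from PDF2.3, and 9063 separate PDF2.2 from PDF2.1.

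Promoters are shown for PDF1.2A and PDF1.2B, which held the GCC box that jasmonate and ethylene factors bind, and for PDF2.2 and PDF2.3, which gave nearly all of the reads. Each is the 250 bases before the annotated start in RefSeq TAIR10.1, 5′ to 3′ on the gene's strand, with GCCGCC in capitals, from chr5:17907639-17907888 (minus strand), chr2:11088873-11089122, chr2:527929-528178 and chr2:539648-539897 (plus strand).
PDF1.2A: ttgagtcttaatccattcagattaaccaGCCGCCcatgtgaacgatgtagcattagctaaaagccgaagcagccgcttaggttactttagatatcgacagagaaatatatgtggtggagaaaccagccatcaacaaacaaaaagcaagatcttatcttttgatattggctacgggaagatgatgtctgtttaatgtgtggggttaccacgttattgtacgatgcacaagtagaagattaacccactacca
PDF1.2B: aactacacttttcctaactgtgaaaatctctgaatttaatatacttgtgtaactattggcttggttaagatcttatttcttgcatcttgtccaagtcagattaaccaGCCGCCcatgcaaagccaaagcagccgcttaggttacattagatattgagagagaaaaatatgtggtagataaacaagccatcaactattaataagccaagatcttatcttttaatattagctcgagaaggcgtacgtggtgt
PDF2.2: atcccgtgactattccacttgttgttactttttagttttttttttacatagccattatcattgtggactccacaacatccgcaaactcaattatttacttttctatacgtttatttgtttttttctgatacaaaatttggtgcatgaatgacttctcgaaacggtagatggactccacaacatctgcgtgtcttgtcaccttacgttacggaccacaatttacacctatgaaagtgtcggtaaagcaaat
PDF2.3: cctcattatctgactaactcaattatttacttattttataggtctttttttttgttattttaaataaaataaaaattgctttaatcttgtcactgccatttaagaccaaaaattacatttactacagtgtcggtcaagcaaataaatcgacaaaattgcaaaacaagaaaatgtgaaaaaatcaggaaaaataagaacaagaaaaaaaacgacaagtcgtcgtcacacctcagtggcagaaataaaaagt
GCCGCC, searched on both strands, was present in 2 of the 10 member promoters and in 513 of 27443 promoters of the same length (1.9%). It ended 217 bases before the start of PDF1.2A and 138 bases before that of PDF1.2B, on the gene's own strand in both. CACGTG, the G-box core, which reads the same on both strands, was in none of the 10 and in 6.5% of all promoters. TATAAA, searched on both strands, was in 6 of 10 members (PDF1.1, PDF1.2C, PDF1.4, PDF2.1, PDF2.3 and PDF2.5) and in 47.3% of all promoters.

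Gene reads per library ranged from 1777781 (A. arenosa control 1) to 16149496 (Col hybrid 1). Replicate 1 of both A. thaliana controls stood apart: 31430 loci had reads in Col control 1 against 23123 in Col control 2, and 28243 against 23105 in the C24 controls. Results on thinly read members that rest on these libraries are given by library. The seed label was checked against defining markers. Markers of the seed coat summed to between 1990 and 5800 CPM (library-scaled counts, with TMM factors) in the 8 A. thaliana-mother seed libraries and to between 749 and 1040 in siliques, and endosperm markers to between 114 and 417 against between 11.4 and 27. The 5 embryo markers did not separate the tissues: they summed to between 154 and 257 CPM in those seeds and to between 126 and 171 in siliques. In siliques against seeds of the same cross, 53.2% (Col) and 58.8% (C24) of all genes were called. Of 7 fruit wall markers, 4 were called higher and 2 lower in siliques, in Col and in C24 alike (median log2 fold change 0.79 and 0.87). Their sum was 514 to 622 CPM in those seeds and 414 to 472 in siliques, and SHP1 and SHP2, which have the most reads of that list, are also known from ovules. In the A. arenosa control, 2 of 8 endosperm markers had reads in each library, and pollen markers summed to 907 and 6650 CPM against at most 22.7 in all other seed libraries. Reads of A. arenosa were counted on the A. thaliana genome, so that species and read matching cannot be told apart in comparisons with that group. Hybrid seeds also carry an A. arenosa genome and the A. thaliana controls do not. The part of read matching in differences between hybrid and control seeds was therefore not separable either.

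Of the 17081 reads at the 10 loci, PDF2.2 and PDF2.3 took 16938, or 99.2%. PDF2.2 had 9458 reads and PDF2.3 7480 over the 14 libraries, and both had reads in every library. PDF2.1 came next with 75 reads in 7 libraries. The 6 PDF1 loci together had 65 reads among 169698076 gene reads. PDF1.1 had 26 of them, PDF1.4 had 10, PDF1.2A 9, PDF1.2C and PDF1.3 8 each, and PDF1.2B 4. PDF2.5, known in A. thaliana for binding cadmium, had 3 reads in all, at most 1 in a library.

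**Figure D1:**
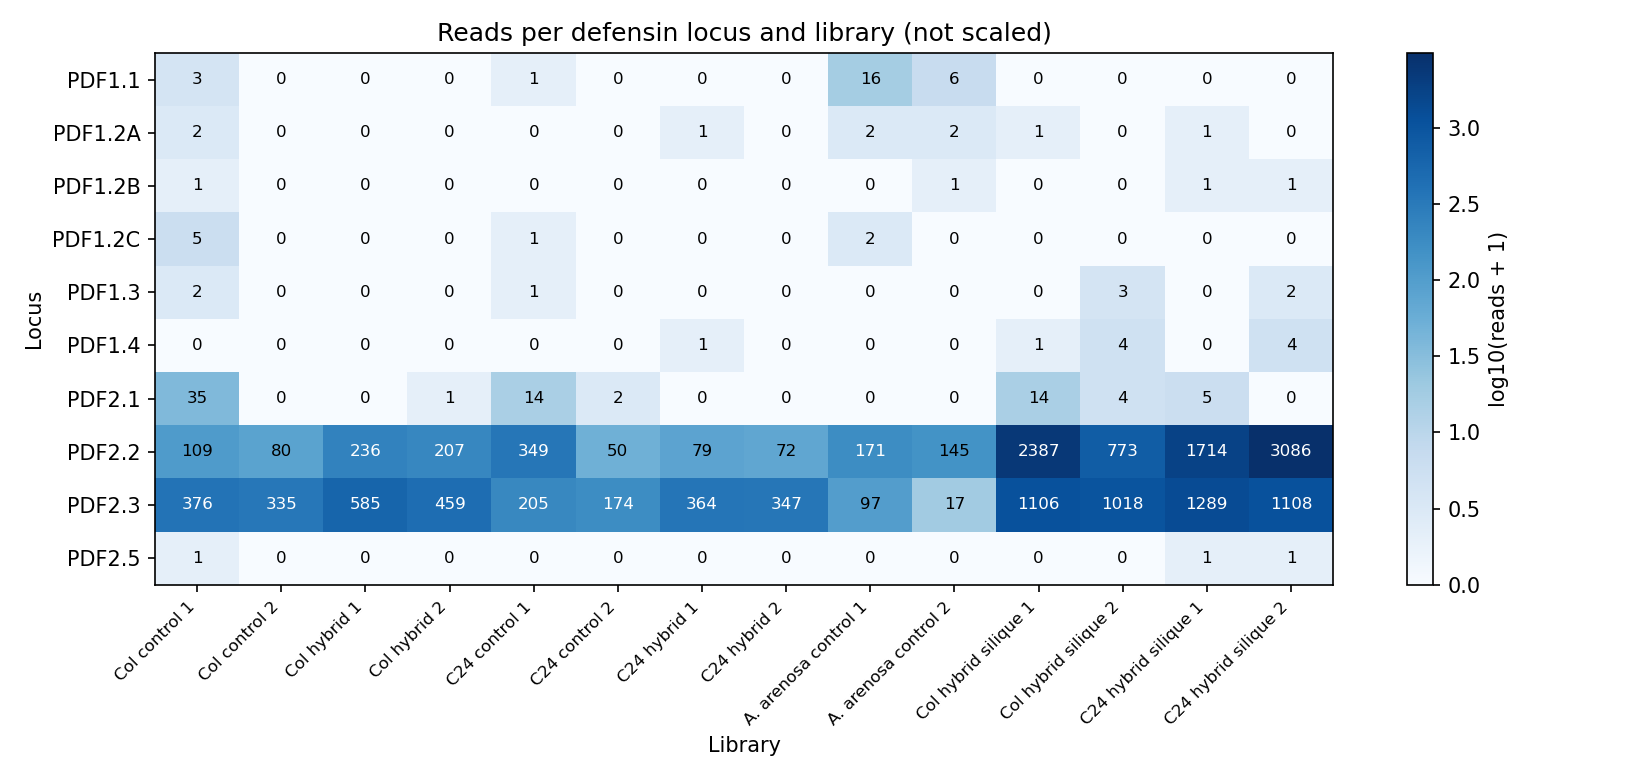
Unscaled reads at each defensin locus (rows) in each of the 14 libraries (columns), with colour giving log10(reads + 1) and the number printed in each cell. PDF2.2 and PDF2.3 fill the figure, PDF1.1 shows 16 and 6 reads in the A. arenosa control, and Col control 1 is the library with reads at 9 of the 10 loci.

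The jasmonate and ethylene readout was nearly unread in hybrid seeds. PDF1.2A, PDF1.2B, PDF1.2C and PDF1.3 together had 1 read, at PDF1.2A in C24 hybrid 1, among the 49180163 gene reads of the 4 hybrid seed libraries. PDF1.1, PDF1.2B, PDF1.2C, PDF1.3 and PDF2.5 had 0 reads there, which allows up to 0.061 CPM, unscaled, for each, for counting error only. PDF1.4 had 1 read, also in C24 hybrid 1. In the controls, Col control 1 held 2 reads of PDF1.2A, 1 of PDF1.2B, 5 of PDF1.2C and 2 of PDF1.3, whereas Col control 2 held 0 of all 4. C24 control 1 held 1 read each of PDF1.2C and PDF1.3, and C24 control 2 held none. Among the A. thaliana controls, the reads therefore fell in the libraries with the most loci detected. The part of that breadth in these counts was not tested. The A. arenosa control held 4 and 3 reads of these 4 genes, although its libraries had the fewest loci detected (19860 and 19596). PDF1.2A was at 0.966 and 0.923 CPM there, against at most 0.127 CPM in any other library. Whole siliques had between 1 and 3 reads of these 4 genes in each of the 4 libraries, and PDF1.4 had 1 and 4 in the Col hybrid siliques and 0 and 4 in the C24 hybrid siliques. A difference between hybrid and control seeds was not detectable at this depth for any of these 5 genes, none of which passed the filter on low counts in any fit.

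PDF1.1, the seed defensin, was read almost only in the A. arenosa control. It had 16 and 6 reads there (7.73 and 2.77 CPM), although these 2 libraries were the shallowest. Col control 1 had 3 reads, C24 control 1 had 1, and the other 10 libraries had 0. Both A. arenosa libraries thus lay above all others in CPM. Summed over the pair, the A. arenosa control was 52.9 times the Col control (exact 95% interval 15.9 to 276) and 144 times the C24 control (23.3 to 5950), intervals that cover counting error only. Against hybrid seeds, where all 4 libraries had 0 reads, it was at least 18.5-fold higher than in the Col hybrid and at least 18.8-fold higher than in the C24 hybrid, with 3 reads per library as the floor. PDF1.1 passed the filter on low counts only through the A. arenosa group, so that it had to differ if tested, and no call is read from its test. These A. arenosa libraries also carried the 907 and 6650 CPM of pollen markers, whose part in the levels of PDF1.1 and PDF2.2 was not tested. Replicate 1, with 907 CPM, had the more of both genes (PDF1.1 7.73 and PDF2.2 82.6 CPM). Replicate 2, with 6650 CPM, had 2.77 and 66.9 CPM. The 4.0% of PDF1.1's 31-base words found elsewhere were shared with PDF1.2B, PDF1.2C and PDF1.3.

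PDF2.3 rose in both hybrids. In Col seeds its levels were 23.9 and 22.5 CPM in the controls and 38.7 and 56.5 CPM in the hybrids. The groups did not overlap, and the rise from 23.2 ± 0.989 to 47.6 ± 12.6 CPM (mean ± SD, n = 2) was a log2 fold change of 1.07 ± 0.20 (SE, edgeR adjusted p = 0.0106). In C24 seeds the controls had 15.0 and 12.4 CPM and the hybrids 32.6 and 33.6 CPM. Again the groups did not overlap, and the log2 fold change was 1.29 ± 0.21 (adjusted p = 0.00255). PDF2.3 was 1 of 3 members tested in each comparison, against 16.8% of all tested genes called in the Col comparison and 31.8% in the C24 comparison, and 1 call in 3 cannot be set apart from these backgrounds. The median log2 fold change over all tested genes was -0.01 in Col and 0.00 in C24. A difference of the rise between the mothers was not called (interaction -0.23 ± 0.28, adjusted p = 0.738); 0 of 3 members were called in that contrast, where 1.39% of all genes were, and 1, PDF2.2, had an unadjusted p under 0.05.

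The Col call ended without Col hybrid 2 (0.82, adjusted p = 0.0586) and with both A. thaliana controls reduced to their second library (adjusted p = 0.0513), and both calls ended in a fit of all 7 groups (adjusted p = 0.202 and 0.0885), where the fold changes stayed at 1.04 and 1.24. Marker sums differed between the same groups: the 8 seed coat markers summed to between 3690 and 5800 CPM in the A. thaliana control seeds and to between 1990 and 2550 in the hybrid seeds, and all had reads in every library. BAN had the most reads of that list over the 14 libraries. Of the 8, only 2 were called lower and 0 higher in each hybrid, beside 16.8% (Col) and 31.8% (C24) of all genes called. Their median log2 fold change was -0.13 in Col and -0.29 in C24. Endosperm markers summed to 152 and 168 CPM in Col controls, 167 and 243 in Col hybrids, 137 and 114 in C24 controls and 417 and 181 in C24 hybrids. Of these 8 markers, 2 were called higher and 3 lower in Col (median -1.19), and 4 higher and 2 lower in C24 (median 0.94). Embryo markers summed to 188 and 185 CPM in Col controls, 238 and 257 in Col hybrids, 214 and 154 in C24 controls and 213 and 226 in C24 hybrids. ATML1 had the most reads of the embryo list over the 14 libraries. Of 4 embryo markers tested, 0 were called higher and 0 lower in Col (median -1.73). In C24, 1 was called higher and 1 lower (median -2.65). The part of tissue makeup in the rise of PDF2.3 was not tested, and in these bulk samples fewer cells of a type and less RNA per cell cannot be told apart.

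**Figure D2:**
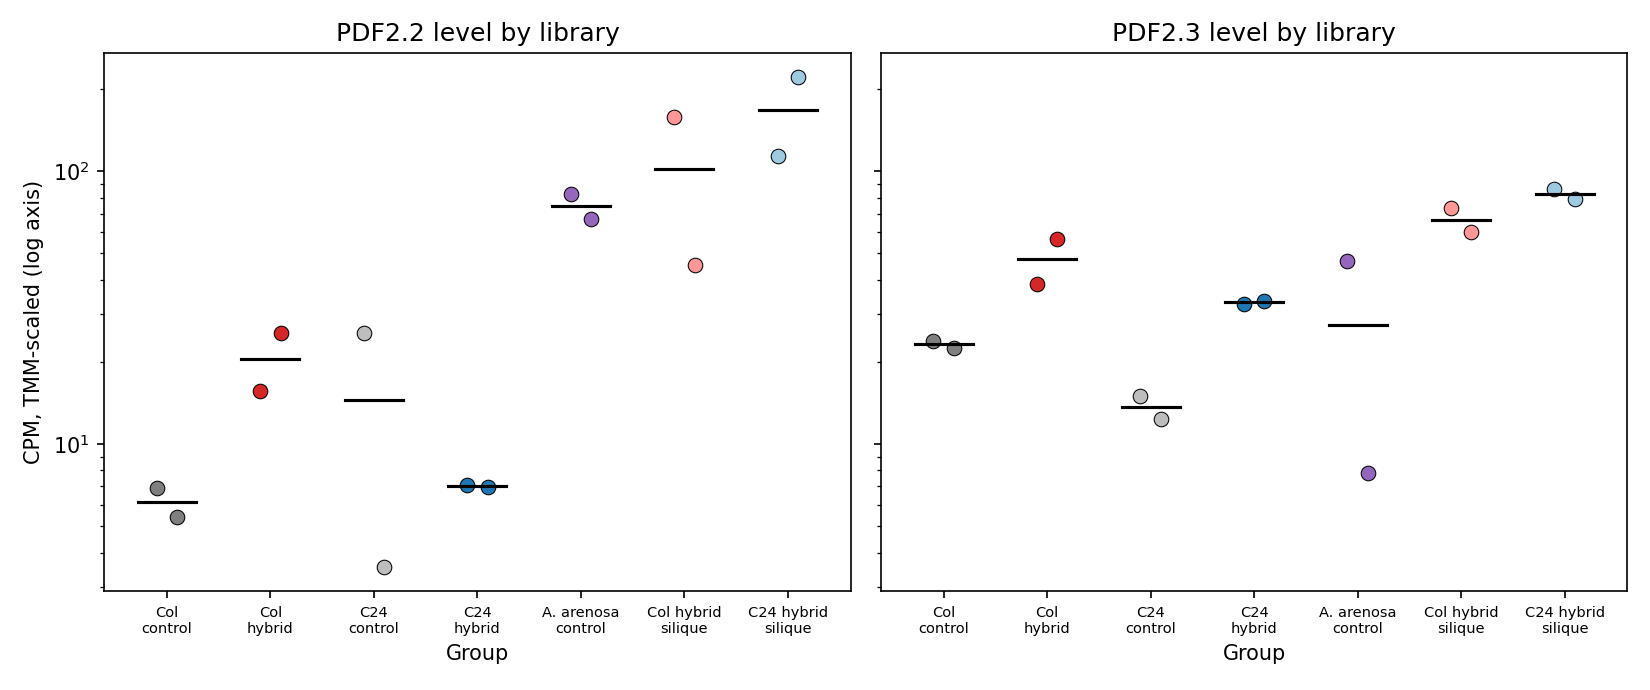
TMM-scaled CPM of PDF2.2 (left) and PDF2.3 (right) on a shared log axis, with a point for each library and a bar at the mean of the 2 libraries of a group. PDF2.3 lies higher in both hybrids than in their controls, while PDF2.2 is split in the C24 control, at 25.5 and 3.55 CPM.

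PDF2.2 gave no call in either hybrid. Its levels were 6.93 and 5.38 CPM in the Col controls and 15.6 and 25.5 in the Col hybrids, 2 groups that did not overlap. The log2 fold change was 1.76 ± 0.70 (adjusted p = 0.121). In C24 the controls had 25.5 and 3.55 CPM and the hybrids 7.07 and 6.96. The hybrid pair lay between the 2 control libraries, and the log2 fold change of -1.02 ± 0.70 (adjusted p = 0.311) turned to 0.88 (adjusted p = 0.123) without C24 control 1. Between the mothers the hybrid effect differed by 2.78 ± 0.99 (adjusted p = 0.228), which was called only without C24 control 2 (adjusted p = 2.18e-06) and with no filter on low counts (1.43e-11). The Col value passed the threshold with both controls reduced to their second library (1.90, adjusted p = 0.0155), when only the Col groups were fitted (1.68, adjusted p = 0.0231) and with no filter on low counts (1.84). The C24 value was called lower without C24 control 2 (-1.78, adjusted p = 0.00027) and with no filter (-0.99), so that its direction and its call depended on which control library was kept.

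PDF2.1, the neighbour of PDF2.3, was close to unread in hybrid seeds. It had 35 and 0 reads in the Col controls and 0 and 1 in the Col hybrids. All of the Col control reads lay in Col control 1, the library with the most loci detected, and the summed ratio of 26.6 (exact 95% interval 4.47 to 1080, counting error only) rests on that library. The C24 controls had 14 and 2 reads and the C24 hybrids 0 and 0, a summed level at least 2.09-fold higher in the controls. This bound rests on C24 control 1 (1.02 CPM), since C24 control 2 (0.142 CPM) lay below the floor of 0.279 CPM. edgeR called neither difference (adjusted p = 0.258 and 0.193). In siliques the counts were 14 and 4 for Col and 5 and 0 for C24, and in the A. arenosa control they were 0 and 0. The gene passed the filter in the seed fits through the control libraries and did not pass it in the fit with siliques.

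Between the 2 A. thaliana controls, PDF2.3 was higher in Col (23.2 ± 0.989) than in C24 (13.7 ± 1.85 CPM), a log2 fold change of 0.78 ± 0.20 (adjusted p = 0.035), where 16.8% of genes were called. The call ended on leaving out any 1 of the 4 libraries (adjusted p = 0.0743 to 0.291). PDF2.2 differed by -1.21 ± 0.70 (adjusted p = 0.272), and its sign turned without C24 control 1 (0.66). Between the hybrids, none of the 3 tested members was called, with 9.78% of genes called: PDF2.3 was at 47.6 ± 12.6 CPM in Col and 33.1 ± 0.702 in C24 (0.55 ± 0.20, adjusted p = 0.126), and PDF2.2 was at 20.5 ± 6.97 and 7.01 ± 0.074 (1.57 ± 0.71, adjusted p = 0.217). At an unadjusted p under 0.05, 1 of the 3, PDF2.3, passed with edgeR in this comparison.

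PDF2.2 was higher in the A. arenosa control than in all 8 seed libraries with an A. thaliana mother. It had 171 and 145 reads there (82.6 and 66.9 CPM), against at most 25.5 CPM in the others. Its log2 fold change was 3.58 ± 0.68 over the Col control (adjusted p = 0.00191) and 2.38 ± 0.64 over the C24 control (adjusted p = 0.0108), where 49% and 53.5% of all tested genes were called. The call over the C24 control missed the threshold when only those 2 groups were fitted (adjusted p = 0.076). Hybrid seeds, which carry an A. arenosa genome, were lower than the A. arenosa control, with a log2 fold change of -1.82 ± 0.63 in Col (adjusted p = 0.0361) and -3.41 ± 0.68 in C24 (adjusted p = 0.00237), where 49.8% and 51.2% of genes were called. A PDF2.2 call in each of these 4 comparisons is not set apart from such shares. The Col hybrid call ended when any 1 of A. arenosa control 2, Col hybrid 1 or Col hybrid 2 was left out (adjusted p = 0.073 to 0.255), and in the fit of all 7 groups (0.0538). These comparisons share the A. arenosa libraries. Against the Col control, the median over all genes was -0.25 on the log2 scale with TMM and -0.13 with RLE scaling, and PDF2.2 was higher under both.

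PDF2.3 was split in the A. arenosa control, with 97 reads (46.9 CPM) in replicate 1 and 17 reads (7.84 CPM) in replicate 2. No comparison with that group called it (adjusted p = 0.158 to 0.779), and its sign against both A. thaliana controls depended on which library was kept: 1.03 and 1.73 with replicate 1 alone, -1.55 and -0.82 with replicate 2 alone. The library with the low PDF2.3 level was the one with 6650 CPM of pollen markers, against 907 CPM in the other, and the part of pollen RNA in that level was not tested. Without A. arenosa control 1, PDF2.3 was called higher in the Col hybrid than in that group (2.67, adjusted p = 7.96e-05).

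Whole siliques held more PDF2.2 than the seeds of the same cross. Col hybrid seeds had 15.6 and 25.5 CPM and Col hybrid siliques 158 and 45.3. The groups did not overlap, although the silique libraries differed from each other by far more than the seed libraries did, and the log2 fold change was 2.41 ± 0.55 (adjusted p = 0.00544). It missed the threshold without Col hybrid 1 (adjusted p = 0.0601). In C24 the seeds had 7.07 and 6.96 CPM and the siliques 114 and 221. Both silique libraries lay far above both seed libraries, at a log2 fold change of 4.69 ± 0.62 (adjusted p = 0.000232). PDF2.3 was also higher in siliques, at 82.6 ± 4.66 against 33.1 ± 0.702 CPM in C24 (1.43 ± 0.22, adjusted p = 0.000487). In Col it went from 47.6 ± 12.6 to 66.5 ± 9.64 CPM (0.58 ± 0.21, adjusted p = 0.044), and this call ended with DESeq2 (adjusted p = 0.0546) and when only the 2 compared groups were fitted (0.102), as well as in the fit of all 7 groups (0.36) and without Col hybrid 1 or either silique library (0.0607 to 0.265). Seed coat markers summed to between 749 and 1040 CPM in siliques against between 1990 and 2550 in hybrid seeds. Pollen markers summed to 114 and 46.9 CPM in Col siliques against 22.7 and 15.6 in Col hybrid seeds (4 of 5 called higher), and to 31.9 and 46.6 against 14.6 and 13.8 in C24 (2 of 5 called higher). Within each cross the silique library with more PDF2.2 also had the higher pollen sum. This did not hold between crosses: Col silique 2 and C24 silique 2 had pollen sums of 46.9 and 46.6 CPM, with PDF2.2 at 45.3 and 221 CPM. The part of tissue makeup in these differences was not tested. Both tested members were called in each cross, where 53.2% (Col) and 58.8% (C24) of all genes were called. Siliques of the 2 crosses gave no call in either gene (PDF2.2 -0.73 ± 0.52, adjusted p = 0.603, and PDF2.3 -0.32 ± 0.21, adjusted p = 0.562), with 4.31% of genes called.

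**Figure D3:**
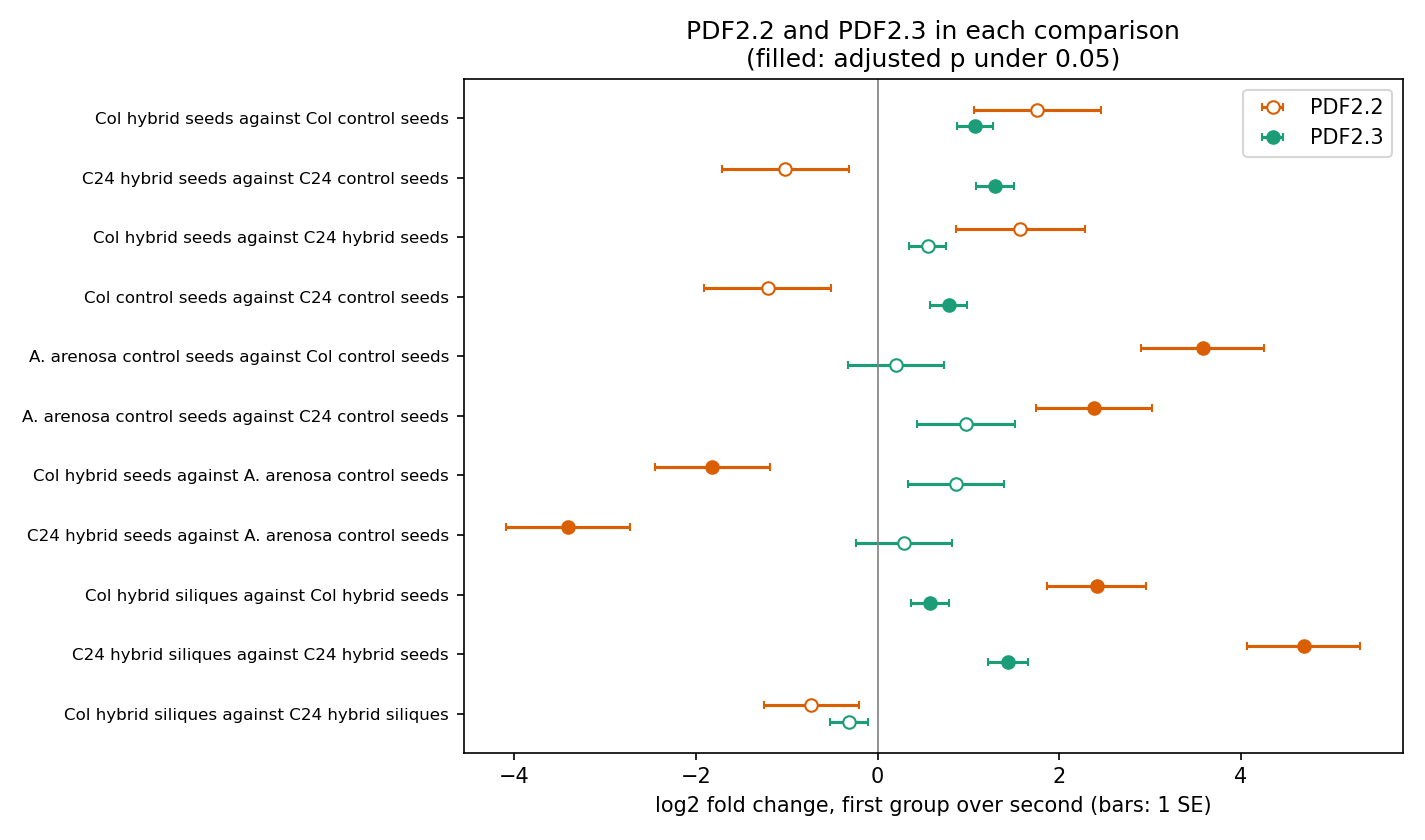
Log2 fold change of PDF2.2 and PDF2.3 (x axis, first group over second, bars 1 SE) in each of the 11 comparisons of 2 groups, filled where the adjusted p is under 0.05. PDF2.3 is called higher in both hybrids and PDF2.2 in neither, and both genes are called higher in siliques than in seeds.

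Per kilobase of exon, PDF2.3 stood above PDF2.2 in all hybrid seed and Col control libraries. The ratio of PDF2.2 to PDF2.3 per kilobase was 0.379 and 0.423 in the Col hybrids, 0.204 and 0.195 in the C24 hybrids, and 0.272 and 0.224 in the Col controls. The C24 controls were split, at 1.6 and 0.27. In siliques it was 2.03 and 0.713 for Col and 1.25 and 2.62 for C24, and in the A. arenosa control it was 1.66 and 8.01. Every hybrid seed library thus lay below every silique library of either cross. Ordered by mean CPM, PDF2.3 ran from C24 control (13.7) through Col control (23.2), A. arenosa control (27.4 ± 27.6), C24 hybrid (33.1), Col hybrid (47.6) and Col hybrid siliques (66.5) to C24 hybrid siliques (82.6). Among neighbours in this order that were compared, the 2 controls and the Col hybrid seeds and siliques were called apart, and the Col control and A. arenosa control, the A. arenosa control and C24 hybrid, the 2 hybrids and the 2 silique groups were not. PDF2.2 ran from Col control (6.16) through C24 hybrid (7.01), C24 control (14.5 ± 15.5), Col hybrid (20.5), A. arenosa control (74.8) and Col hybrid siliques (102 ± 79.9) to C24 hybrid siliques (168 ± 75.4). Of the neighbouring pairs compared, the Col hybrid and the A. arenosa control were called apart, and neither the C24 hybrid and its control nor the 2 silique groups were.

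Across the 14 libraries, the log-scale levels of PDF2.2 and PDF2.3 had a Pearson r of 0.54, and 0.81 over the 12 libraries with an A. thaliana mother. These are descriptions over libraries that share group and tissue. Among 22878 other loci, the nearest to PDF2.2 were AT5G64130 (r = 0.949), PAR2 (0.940) and CWLP (0.934). For PDF2.3 they were ERF12 (0.956), MKS1 (0.946) and AT2G44300 (0.942). For PDF1.1, with reads in 4 libraries, they were AT5G57625 (0.995), NPY2 (0.992) and ACA6 (0.988).

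The genes that act on PDF1.2 were mostly well read. Of 12 activators, 10 were tested. In Col hybrids 1 was higher, EIN2 (an ethylene signal relay, 0.54 ± 0.15, adjusted p = 0.0402), and 1 lower, WRKY33 (a regulator of defence against necrotrophic fungi, -1.77 ± 0.45, adjusted p = 0.0303). In C24 hybrids 3 were higher (EIN2, WRKY33 and MED25, a Mediator subunit, at 1.01 ± 0.17 and adjusted p = 0.00311) and 1 lower, JAR1, which makes the active jasmonate conjugate (245 ± 36.9 to 114 ± 12.3 CPM, -1.09 ± 0.16, adjusted p = 0.00187). WRKY33 moved in opposite directions and its difference between the mothers was called (-3.62 ± 0.67, adjusted p = 0.0435). The 2 calls among 10 in Col and 4 among 10 in C24 stand beside 16.8% and 31.8% of all genes called. The median over the 10 was -0.12 in Col and 0.50 in C24. ERF1 and ORA59, the factors that act directly at the GCC box, had at most 4 reads in any hybrid seed library, while Col control 1, the library with the most loci detected, had 10 and 18. The other 3 A. thaliana controls had 2 and 1, 1 and 1, and 0 and 0 reads of ERF1 and ORA59, no more than the hybrids.

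All 10 listed repressors of PDF1.2 were tested, and in Col 3 were higher and 0 lower, with a median of 0.27. HDA6, a histone deacetylase, went from 41.6 ± 0.836 to 70.7 ± 6.5 CPM (0.80 ± 0.13, adjusted p = 0.00608). NINJA, an adaptor of the jasmonate repressor complex, went from 29.4 ± 1.53 to 42.6 ± 2.7 (0.57 ± 0.13, adjusted p = 0.024), and ERF4 was the remaining call. In C24, 4 were higher and 0 lower, with a median of 0.57: HDA6 (1.07 ± 0.13, adjusted p = 0.000838), NINJA (0.75 ± 0.13, adjusted p = 0.00416), ERF4 and MYC2. Of all tested genes, 16.8% were called in Col and 31.8% in C24. With PDF1.2A, PDF1.2B, PDF1.2C and PDF1.3 at 1 read in hybrid seeds, no change of these targets could be set beside the counts.

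Some other outputs of the hormone branches were well read in seeds, while others were nearly unread there. Of 4 outputs of the ethylene and jasmonate branch, 2 (THI2.1 and PR4) were tested in seeds and neither was called in a hybrid against its control. CHIB and OSM34 did not pass the filter on low counts in seeds. THI2.1, a jasmonate-induced thionin, was at 2750 ± 356 CPM in Col hybrids and 2670 ± 118 in Col controls, at 577 ± 182 and 635 ± 18.4 in C24, and at 0 reads in the A. arenosa control. PR4, a hevein-like protein, had between 13.6 and 114 CPM in these 8 libraries. CHIB, a basic chitinase that is often read together with PDF1.2, had at most 2 reads in a seed library and 88, 182, 141 and 107 in siliques. It passed the filter on low counts only through the silique libraries, so that it had to differ if tested, and no call is read from its test.

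Siliques also held the MYC2 branch outputs: 5 of 5 tested were higher than in seeds of both crosses, where 53.2% and 58.8% of all genes were called. VSP1 went from 13.9 ± 5.72 to 3360 ± 301 CPM in Col (7.99 ± 0.49, adjusted p = 6.48e-06) and from 2.1 ± 0.444 to 1900 ± 789 in C24 (9.93 ± 0.55, adjusted p = 3.3e-06). LOX2, a lipoxygenase of jasmonate synthesis, was at 1010 ± 431 and 1020 ± 198 CPM in siliques. The PDF1.2 and PDF1.3 genes had 1 to 3 reads in each of these silique libraries. In seeds, 0 of 5 MYC2 branch outputs were called in the Col hybrid and 1 in the C24 hybrid, where JR1, a lectin gene, fell from 221 ± 72.6 to 24.8 ± 5.01 CPM (-3.13 ± 0.28, adjusted p = 0.000304), beside 16.8% and 31.8% of all genes called. The salicylate markers PR1, PR2 and PR5 had at most 4 reads in a hybrid seed library, and none was tested between hybrid and control seeds of A. thaliana mothers. In the fit with the A. arenosa control, PR1 and PR2 were tested and neither was called. In siliques the 3 salicylate markers summed to between 7.93 and 17.7 CPM, against at most 0.447 CPM in hybrid seeds. PR5 passed the filter in the fit with siliques only through the silique libraries, and no call is read from its test. Of the genes named here, VSP1 had 5.8% of its 31-base words elsewhere, and THI2.1, CHIB, JR1, HDA6, MYC2 and WRKY33 overlap a neighbouring gene, so their counts may include its reads.

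**Figure D4:**
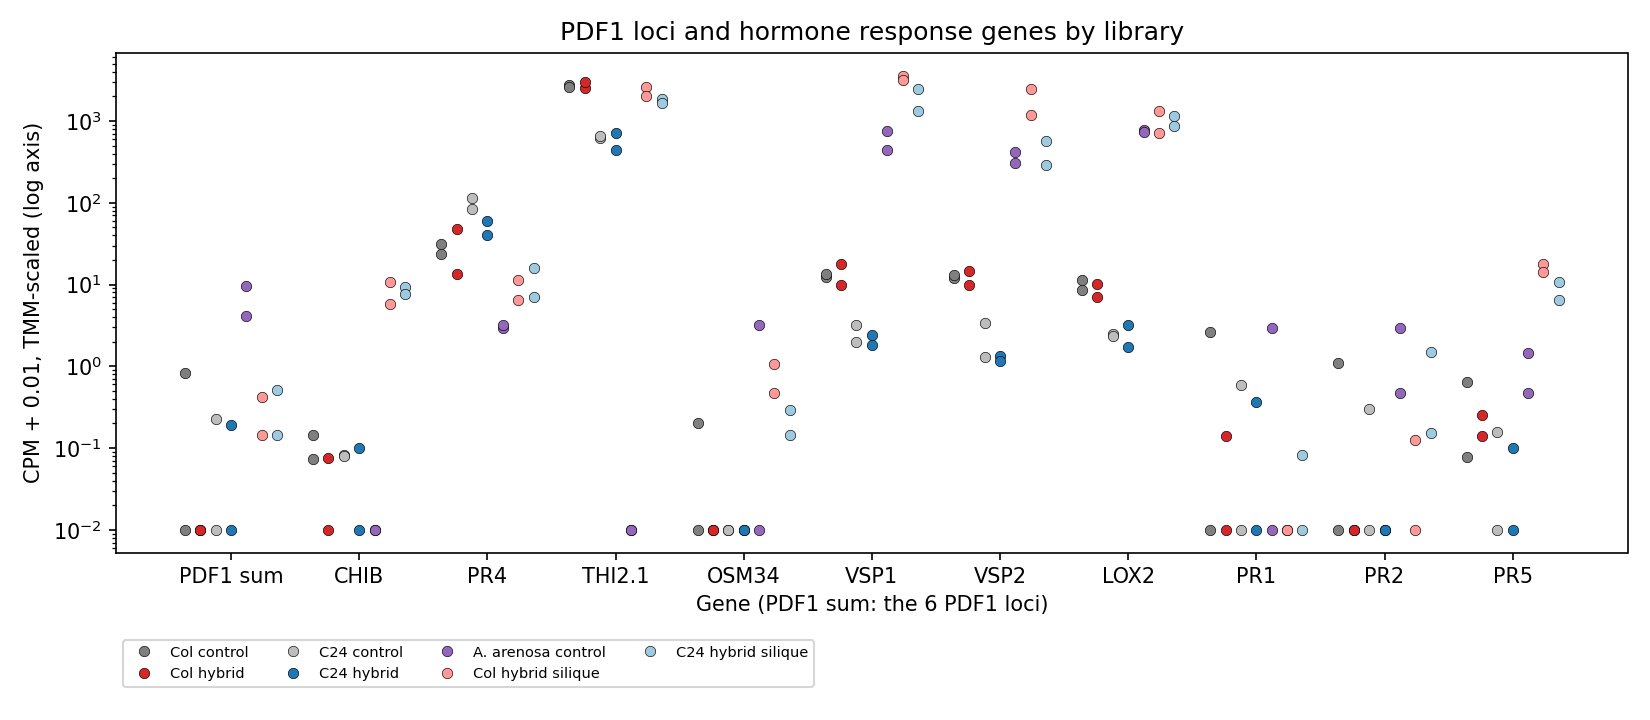
TMM-scaled CPM + 0.01 on a log axis for the summed 6 PDF1 loci and for 10 hormone response genes, with a point for each library coloured by group. THI2.1 is high in all A. thaliana-mother libraries, VSP1, VSP2 and LOX2 are high in siliques and in the A. arenosa control, and the PDF1 sum exceeds 1 CPM only in the 2 A. arenosa libraries.

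Among 5 further PDF-type defensin loci, 2 were tested between hybrid seeds and their controls and 3 in the fit with the A. arenosa control. AT4G30070 (LCR59) rose in both hybrids. It went from 17.9 and 18.5 CPM to 46.5 and 61.5 in Col (1.60 ± 0.21, adjusted p = 0.00298) and from 5.84 and 8.88 to 36 and 34.2 in C24 (2.26 ± 0.23, adjusted p = 0.000429), without overlap of the groups. LCR59 was 1 of the 2 tested, beside 16.8% (Col) and 31.8% (C24) of all genes called. In siliques it was lower than in seeds (-2.72 ± 0.37 in Col, adjusted p = 0.000325, and -1.89 ± 0.36 in C24, adjusted p = 0.00176), the direction opposite to that of PDF2.3. Of all genes, 53.2% (Col) and 58.8% (C24) were called in these comparisons. AT5G38330 (LCR80) had 73 and 22 reads in Col hybrid siliques and 62 and 105 in C24 hybrid siliques, against 4 and 3 in Col hybrid seeds and 2 and 3 in C24 hybrid seeds. It passed the filter in the fit with siliques only through the silique libraries, and no call is read from that test. AT2G02140 (LCR72) had 38 and 467 reads in the A. arenosa control and at most 24 in any other library, and the library with 467 was the one with 6650 CPM of pollen markers. LCR72 passed the filter in the fit with the A. arenosa control through that group, and no call is read from its test.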

How the data were processed

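The deposited table holds raw whole-number counts per locus, which the authors left unscaled. The submitters' processing notes name BWA and TAIR10, while its version, the counting rule, strand use and the handling of reads that fit several places are not given in the sources used here. Each A. thaliana control column sums a pair of sample records, per the file headers, and was taken as 1 library. In each pair, the title of 1 record ends in the word single, which the sources used here do not explain. No hybrid, silique or A. arenosa column is such a sum. In comparisons of hybrid with control seeds, this difference cannot be told apart from the cross. Transposable element counts were not used here, and 0 value columns had no sample.

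Tests ran in edgeR 4.0.16 under R 4.3.3 (TMM, filterByExpr with minimum count 10, quasi-likelihood fit), adjusted by Benjamini-Hochberg over all tested genes at 0.05. The 4 A. thaliana-mother seed groups shared a fit (20552 genes), as did the 5 seed groups (21619) and the 4 hybrid groups (20700). DESeq2 1.42.0, RLE scaling, no filter, other fits and left-out libraries were alternatives. SE is the absolute log2 fold change over the square root of F. Likeness used log2 CPM with a prior count of 2. The scripts were tested on simulated data.

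All 10 members are named, then the 3 loci most like each of 3 members and the 2 called genes of lowest p per list and hybrid comparison; other names were chosen after their values were seen. Members and lists were chosen with earlier results of these data known. Nothing says that replicates came from separate plants, so p-values measure only how far these samples differ, perhaps for technical reasons. No replicate pair agreed within sampling noise. Precision at low counts is given as exact 95% intervals.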

Additional observations from a re-analysis of the deposited data

How the results depend on the processing

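Settings beside the main fits moved the count of called members as follows. In comparisons with A. arenosa these counts, and the ranges on leaving out a library, include PDF1.1. It passed the filter only through the A. arenosa group, so no call is read from its part in them. With all 7 groups in a fit it was 0 for the Col hybrid against its control, 0 for the C24 hybrid, 0 for Col against C24 controls, 1 for the Col hybrid against the A. arenosa control and 1 for Col siliques against seeds. With only the compared groups it was 2 for the Col hybrid, 1 for Col against C24 hybrids, 1 for the A. arenosa against the C24 control and 1 for Col siliques. With no filter on low counts it was 2 for each hybrid, 2 for Col against C24 controls, 1 for the interaction, 1 for Col against C24 hybrids, 1 for the 2 silique groups and 1 for the A. arenosa against the Col control. Without replicate 1 of both A. thaliana controls it was 0 for the controls and 1 for the 2 hybrids. DESeq2 gave 1 for Col siliques.

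Leaving out a library gave ranges of 0 to 1 for the Col hybrid, 1 to 2 for the C24 hybrid, 0 to 1 for the interaction, for the 2 hybrids and for the 2 controls, 1 to 2 for the A. arenosa against either control and for the C24 hybrid against A. arenosa, 0 to 2 for the Col hybrid against A. arenosa and for Col siliques, 2 to 2 for C24 siliques and 0 to 0 for the 2 silique groups.

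The sign turned on leaving out a library for PDF2.2 in the C24 hybrid (-1.78 to 0.88) and between controls (-2.00 to 0.66), for PDF2.3 in the interaction (-0.45 to 0.07), in A. arenosa against the Col control (-1.55 to 1.03) and the C24 control (-0.82 to 1.73) and in the C24 hybrid against A. arenosa (-0.43 to 2.09), and for PDF2.1 between controls (-5.84 to 2.67). With replicate 1 of both controls left out, PDF2.2 was 0.90 in the C24 hybrid and 0.59 between controls. The causes were not tested. Under the settings that left out no single library, 188 member fold changes kept direction and side of the threshold, 12 lost a call, 12 gained one and 2 turned sign.

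Over all groups the replicate numbers did not meet the bar for pairing: correlations of deviations ranged from -0.36 to 0.65, and 3 of 21 group pairs were over 0.1. These 3 were Col with C24 control (0.65), C24 hybrid with Col control (0.37) and C24 hybrid with C24 control (0.33), and replicate 1 had the more loci with reads in all 3 groups (31430, 28243 and 26084 against 23123, 23105 and 22555). With the block, PDF2.3 in the C24 hybrid was still called (1.29, adjusted p = 0.00292) and PDF2.2 was not (-0.85, 0.376). With the replicate block, 1 member was called in Col siliques, where PDF2.3 had an adjusted p of 0.065; no other count moved. Depth limits the PDF1 genes, PDF2.1 and PDF2.5, where 3 reads correspond to 0.176 to 0.369 CPM in the A. thaliana-mother libraries and to 1.45 and 1.38 CPM in the A. arenosa control.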

Other observations

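The LCR family of low-molecular-weight cysteine-rich peptides includes defensin relatives and AT4G30070 (LCR59). Of 78 loci with LCR symbols, 38 were tested. In Col hybrids 13 were higher and 10 lower, and in C24 hybrids 14 were higher and 7 lower, beside 16.8% and 31.8% of all genes called in either direction. The medians were 0.10 in both. LCR19 and LCR61, which lie close to LCR59 by locus code, were higher in both crosses. LCR63, whose code lies between those of LCR61 and LCR59, had few reads and went the other way. It had 0.127 and 0.538 CPM in Col controls and 0.199 and 0 in Col hybrids. In C24 it had 1.02 and 0.639 CPM in controls and 0.358 and 0 in hybrids. LCR19 had 4.26 and 2.42 CPM in Col controls and 18.4 and 21 in Col hybrids (2.58 ± 0.34, adjusted p = 0.00302), and 4.89 and 5.33 against 18.9 and 32.5 CPM in C24 (2.35 ± 0.33, adjusted p = 0.00152). LCR61 had 7.76 and 4.98 against 24.7 and 36.5 CPM in Col (2.29 ± 0.30, adjusted p = 0.00275).

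Other LCR genes were lower in hybrids. The difference of the hybrid effects was called for 7 LCR genes, each with the lower hybrid effect in Col, where 1.39% of all genes were called. LCR22 had 12 and 12.9 CPM in Col controls and 0.265 and 0.123 in Col hybrids, against 15 and 12.6 and then 4.83 and 3.29 CPM in C24 (difference -4.03 ± 0.46, adjusted p = 0.00634). LCR36 had 22.6 and 28.2 against 0.397 and 0.246 CPM in Col, and 20 and 16.5 against 3.13 and 1.45 CPM in C24 (-3.18 ± 0.54, adjusted p = 0.0309). LCR21 and LCR23, neighbours of LCR22 by locus code, gave -3.18 ± 0.53 and -4.58 ± 0.65 (adjusted p = 0.0284 and 0.0162). In the same contrast PDF2.2 had 2.78 ± 0.99 and PDF2.3 -0.23 ± 0.28, neither called. LCR24, next to LCR21 by locus code, lay higher in both hybrids. It had 84.7 and 94.7 against 152 and 220 CPM in Col, and 71.3 and 46.4 against 180 and 196 CPM in C24. LCR21, LCR22, LCR23 and LCR36 had 0 reads in both A. arenosa control libraries, as had LCR59, which was higher in both hybrids. The part of read matching in these differences was not tested. LCR12 rose in both crosses, from 7.57 and 6.19 to 16.9 and 20.1 CPM in Col (1.45 ± 0.22, adjusted p = 0.00521) and from 1.46 and 2.27 to 17.5 and 17.4 CPM in C24 (3.23 ± 0.26, adjusted p = 0.00019). The other LCR genes were named here after their values were seen.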
